A study of Danio rerio with 36 samples.

Results

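Loss of lrp2 was compared between the sclera with choroid and the retinal pigment epithelium (RPE) of zebrafish eyes at 1 month post-fertilization. For every gene the quantity of interest was the interaction, the log2 difference between mutants and wild type in sclera with choroid minus the same difference in RPE. A positive interaction means that mutants were higher relative to wild type in sclera with choroid than in RPE. Of the 36 libraries of the series, 12 entered the comparison, 3 each of wild-type RPE, lrp2-/- RPE, wild-type sclera with choroid and lrp2-/- sclera with choroid. The wild-type fish are labelled ZDR. The labels name no lesion in lrp2, no sex and no number of eyes per library, and they give no transgene or treatment for these 4 groups. Of 31916 gene identifiers, 22655 passed the filter on low counts and were tested. Whether each library came from another animal is not stated, so p-values reflect library-to-library spread alone, and that spread may be technical.

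Lrp2, also called megalin, is a large endocytic receptor of the low-density lipoprotein receptor family. It sits on the apical face of absorptive epithelia, among them the RPE, where it takes up vitamin carriers, hormones and signalling proteins. Loss of lrp2 in zebrafish is known for enlarged eyes. The RPE recycles the visual chromophore and pigments the back of the eye. The sclera is the collagen coat that sets the eye's size, and the choroid is the vessel layer between both.

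Sequencing depth ran from 17543343 to 24913677 expected counts, with 24864 to 25525 genes detected per library. Each library correlated at a median of 0.926 to 0.967 with its own group over log2 CPM (counts scaled to a common library size). Mutant RPE 21 stood apart with the lowest of these values, against 0.922 with wild-type RPE. The melanosome markers of wild type reached a sum of 12990 ± 1056 TPM (length-scaled transcript levels) in RPE and 357 ± 26.1 TPM in sclera with choroid (SD, n = 3 each). The sums of fibroblast matrix markers were 7810 ± 1989 TPM in RPE and 23750 ± 1522 TPM in sclera with choroid, again in wild type. Vessel genes did not follow the dissection labels, since wild-type endothelial markers came to 3806 ± 1002 TPM in RPE and to 821 ± 271 TPM in sclera with choroid. Corneal and surface epithelium markers, a list named for neither tissue, came to 128700 ± 12270 TPM in sclera with choroid of wild type. They ranged from 5547 to 37190 TPM over the mutant RPE libraries, where mutant RPE 21 was lowest and mutant RPE 12 highest. Whether cells of the RPE or sclera express some of these markers was not tested. Of the marker lists, no gene was at 0 in all 12 libraries. In such mixed tissue, fewer cells of a type and less RNA per cell cannot be told apart.

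**Figure D1:**
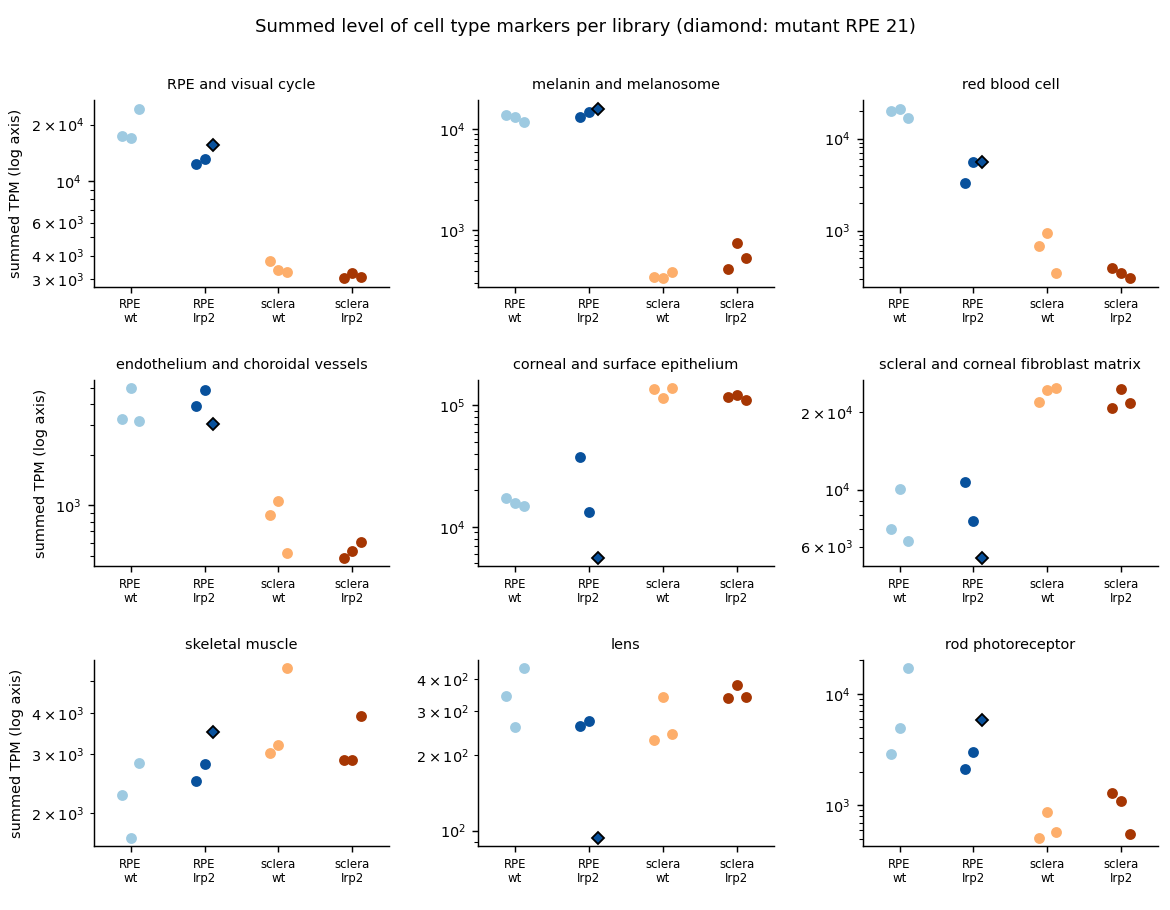
Summed TPM of 9 marker lists in each of the 12 libraries, on log axes, by tissue and genotype, with mutant RPE 21 as a diamond. Melanosome, visual cycle, endothelial and red blood cell markers were higher in RPE, epithelial and matrix markers were higher in sclera with choroid, and the mutant RPE libraries spread from 5547 to 37190 TPM for epithelial markers.

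LRP2 itself was covered by 2579, 2105 and 2221 expected counts in wild-type RPE and by 1185, 2349 and 2216 in mutant RPE. Wild-type sclera with choroid held 130, 234 and 118 counts of LRP2, and mutant sclera with choroid 184, 143 and 168. The genotypes overlapped in both tissues. The interaction was 0.41 (SE 0.42, 95% interval -0.52 to 1.33, edgeR adjusted p = 0.835). Since the lesion is not named, a count over the whole gene checks no genotype label. The second copy, lrp2b, had at most 4 counts in any of the 12 libraries and was below the filter.

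Most genes that differed between genotypes in one tissue moved the same way in the other. In sclera with choroid 1124 genes passed the test (4.96% of genes tested), 512 of them higher in mutants (2.26%) and 612 lower (2.7%). In RPE 1174 genes passed (5.18%), 451 higher (1.99%) and 723 lower (3.19%). Both tissues shared 378 of these genes, 33.6% of those of sclera with choroid and 32.2% of those of RPE, and 373 of the 378 moved in the same direction, 162 higher and 211 lower. A further 1542 genes passed in 1 tissue only, and 1262 of them had the same sign in the other tissue. The share of genes with the same sign over all genes tested was not computed, so these counts cannot be set against it. The count in sclera with choroid was 502 and 654 without wild-type sclera 11 and 12, and 487, 435 and 464 without mutant sclera 11, 12 and 13. That in RPE was 614 and 583 without wild-type RPE 11 and 13, and 626 and 559 without mutant RPE 12 and 13.

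The interaction itself passed the test for 43 genes (0.19%), 30 with a higher mutant effect in sclera with choroid (0.132%) and 13 with a lower one (0.0574%). Only 35 of the 1542 genes that passed in 1 tissue were among them. The test was coarse, since the median SE of an interaction was 0.38 and the smallest interaction that passed was 0.70 in size. The count depended on single libraries. Without mutant RPE 21 it was 109, and 39 of the 43 genes still passed. Without mutant sclera 12 it was 1, without wild-type sclera 11, 12 or 13 it was 4, 8 and 13, and without mutant sclera 11 or 13 it was 9 and 7. Without wild-type RPE 11, 12 or 13 it was 12, 58 and 15, and without mutant RPE 12 or 13 it was 9 and 15. UBA6 was the 1 gene that passed whichever of the 12 libraries was left out, and crygs3, rnf11a and SNX8 passed in none of those 12 settings. No direction of these genes turned in the alternative settings, of which 22 could be computed for 41 genes and 20 for MCM6 and SCN10A, which were below the filter on low TPM.

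**Figure D2:**
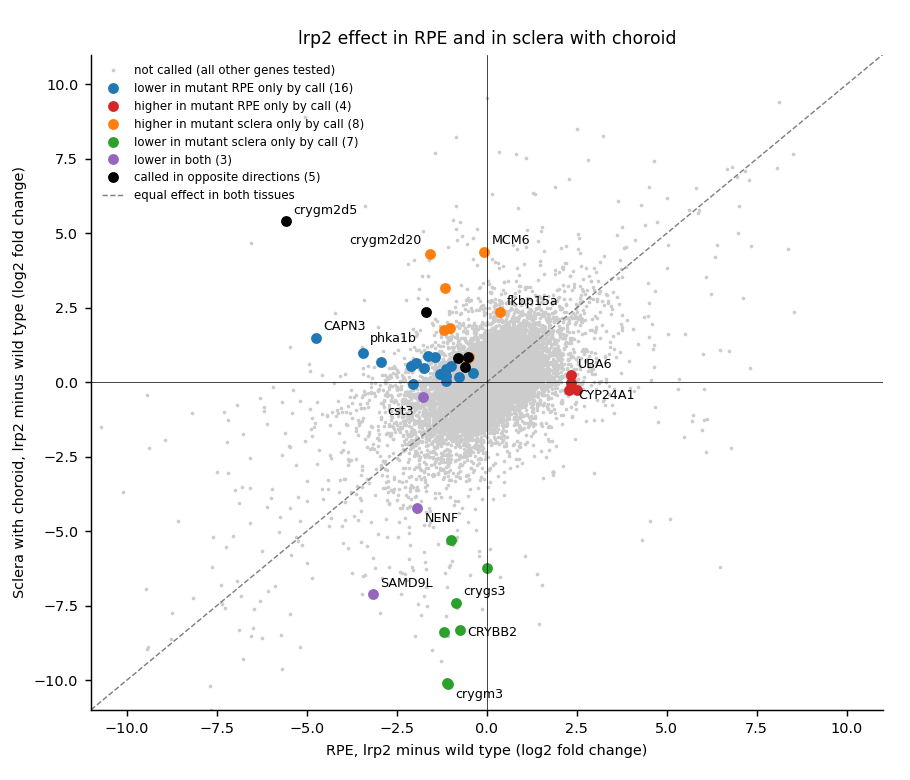
Log2 fold change of mutants against wild type in RPE (horizontal axis) and in sclera with choroid (vertical axis) for the 22655 genes tested, with the 43 genes that passed the interaction test in colour by what passed in each tissue. The 16 genes that passed as lower in mutant RPE alone sit left of the centre. On the vertical axis they run from -0.07 (MYBPC2) to 1.5 (CAPN3), mostly above 0. The 5 genes called in opposite directions sit in the upper left.

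Among the 43 genes, 20 passed in RPE and not in sclera with choroid, 15 passed in sclera with choroid and not in RPE, 5 passed in opposite directions and 3 fell in both tissues. Mutant and wild-type libraries did not overlap in RPE for 38 of the 43 (23.7% over all genes tested) and in sclera with choroid for 37 (31.6%). The same 12 libraries picked these 43 genes, so this excess follows from the selection and adds no support. The rule for naming genes took 27 of them. The other 16, among them NQO1, CYP24A1, CYB5A, cav4a, rnf11a and all genes without a symbol, are named here because every gene that passed is accounted for, and were chosen after their values were seen.

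The 4 genes that rose in mutant RPE and did not pass in sclera with choroid included the smallest p of all. UBA6 (ENSDARG00000080019) encodes an E1 enzyme that activates ubiquitin. It was at 18.5, 19.9 and 25.2 CPM in wild-type RPE and at 111, 116 and 92.8 CPM in mutant RPE. In sclera with choroid it was at 24, 25.3 and 27.2 CPM in wild type and 29.6, 30.9 and 28.9 CPM in mutants. The mutant RPE libraries stood far above the other 9, while the genotypes in sclera with choroid lay close together without overlap. UBA6 rose by 2.33 on the log2 scale in RPE (SE 0.13, edgeR adjusted p = 2.59e-05) and differed by 0.23 in sclera with choroid (SE 0.13, edgeR adjusted p = 0.353). Its interaction was -2.11 (SE 0.18, edgeR adjusted p = 0.00651), and it passed when any 1 of the 12 libraries was left out.

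CYP24A1 (ENSDARG00000103277), the hydroxylase that inactivates vitamin D hormone, was at 3.87, 4.25 and 6.19 CPM in wild-type RPE and at 21.3, 25.4 and 25.2 CPM in mutant RPE. In sclera with choroid it lay between 0.63 and 1.13 CPM in wild type and between 0.72 and 1.05 CPM in mutants, and the genotypes overlapped. Its interaction was -2.36 (SE 0.36, edgeR adjusted p = 0.0367). CYP24A1 was also higher without overlap in mutant retina, 2.31 ± 0.27 against 1.39 ± 0.34 CPM. In whole eyes it was at 5.10 ± 0.56 CPM in mutants against 2.67 ± 0.51 CPM, again without overlap. For ifnlr1 (ENSDARG00000087131), a receptor chain for lambda interferons in mammals, wild-type RPE was at 1.24, 0.90 and 0.98 CPM and mutant RPE at 3.90, 6.41 and 4.99 CPM. Sclera with choroid already held 8.07 to 11.3 CPM of it in wild type, and mutants overlapped that range at 6.19 to 10.4 CPM. The unnamed gene ENSDARG00000100904 had the same shape, with 9.28 ± 1.27 CPM in wild-type RPE, 52.4 ± 9.65 CPM in mutant RPE, 60.8 ± 7.26 CPM in wild-type sclera with choroid and 50.2 ± 11.3 CPM in mutant sclera with choroid (SD, n = 3 each). In both of the last genes the mutant RPE came up towards the level of sclera with choroid.

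The largest group, 16 genes, fell in mutant RPE and did not pass in sclera with choroid. NQO1 (ENSDARG00000010250), a quinone reductase of the oxidative stress response, was at 107, 104 and 90.6 CPM in wild-type RPE and at 50.3, 41.8 and 45.9 CPM in mutant RPE. Its level in sclera with choroid was 94.1, 78.9 and 96.9 CPM in wild type and 107, 104 and 103 CPM in mutants. The wild-type tissues overlapped, and the mutant RPE libraries stood below the other 9. Its interaction was 1.35 (SE 0.16, edgeR adjusted p = 0.0168).

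MKX (ENSDARG00000075450), a homeobox transcription factor of tendon and other connective tissue, was at 31.5, 31.3 and 42.2 CPM in wild-type RPE and at 12.0, 7.55 and 11.9 CPM in mutant RPE. Its level in sclera with choroid was 16.4, 17.6 and 16.7 CPM in wild type and 20.9, 24.9 and 24.1 CPM in mutants, so that the order of the tissues was turned round between genotypes. Its interaction was 2.2 (SE 0.26, edgeR adjusted p = 0.0171). The gene zgc:91968 (ENSDARG00000011076) was at 170, 145 and 187 CPM in wild-type RPE and at 30.8, 47.0 and 38.7 CPM in mutant RPE, while sclera with choroid held 6.1 to 7.87 CPM in wild type and 7.58 to 13.0 CPM in mutants. Its interaction was 2.63 (SE 0.30, edgeR adjusted p = 0.0168).

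CAPN3 (ENSDARG00000041864), a calpain protease, fell furthest of the 16 in RPE. It was at 6.11, 8.62 and 12.3 CPM in wild-type RPE and at 0.52, 0.38 and 0.11 CPM in mutant RPE. In sclera with choroid mutants were above wild type at 2.65, 2.64 and 2.22 CPM against 0.79, 1.29 and 0.56 CPM, a difference of 1.5 on the log2 scale that missed the threshold (SE 0.46, edgeR adjusted p = 0.0954). Its interaction was 6.25 (SE 0.69, edgeR adjusted p = 0.0168). Whole eyes held far more of it, 259 TPM in wild type and 220 TPM in mutants, against 6.43 TPM in wild-type RPE.

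MYBPC2 (ENSDARG00000030157), a myosin-binding protein of fast muscle fibres, was at 4.87, 4.07 and 4.98 CPM in wild-type RPE and at 1.17, 1.39 and 0.77 CPM in mutant RPE, with 14.4 to 16.5 CPM in wild-type and 12.5 to 17.1 CPM in mutant sclera with choroid. Wild type and mutants were well apart in RPE and overlapped in sclera with choroid. FBXO32 (ENSDARG00000040277), the ubiquitin ligase subunit atrogin-1 of wasting muscle, was at 19.6 ± 2.18 CPM in wild-type RPE and 8.0 ± 1.18 CPM in mutant RPE, and at 14.5 ± 1.89 CPM and 17.5 ± 0.73 CPM in wild-type and mutant sclera with choroid. The gene phka1b (ENSDARG00000105039), a regulatory subunit of phosphorylase kinase, was at 0.77 to 2.61 CPM in wild-type RPE and 0.11 to 0.25 CPM in mutant RPE, and its interaction was 4.43 (SE 0.67). In sclera with choroid phka1b was at 1.84 to 2.79 CPM in wild type and 3.74 to 5.03 CPM in mutants. The interaction of cav4a (ENSDARG00000003632) was 3.63 (SE 0.56).

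CD36 (ENSDARG00000032639), a scavenger receptor for fatty acids and, in mammalian RPE, for shed photoreceptor discs, was at 3.83, 2.4 and 2.66 CPM in wild-type RPE and at 1.13, 0.67 and 1.06 CPM in mutant RPE. Its level in sclera with choroid was 1.79, 1.91 and 2.1 CPM in wild type and 3.86, 3.5 and 3.23 CPM in mutants. The genotypes were apart in both tissues, in opposite directions, although the difference in sclera with choroid missed the threshold (log2 0.87, SE 0.27, edgeR adjusted p = 0.0972). The interaction of CD36 was 2.5 (SE 0.39, edgeR adjusted p = 0.0390).

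The gene gfra1a (ENSDARG00000099732), a receptor for glial cell line-derived neurotrophic factor, was at 7.50 to 8.45 CPM in wild-type RPE and 1.73 to 2.38 CPM in mutant RPE, with an interaction of 2.61 (SE 0.34, edgeR adjusted p = 0.0244). KLHL25 (ENSDARG00000102418), a substrate adaptor of a ubiquitin ligase, was at 39.5 to 49.4 CPM in wild-type RPE and 18.4 to 21.3 CPM in mutant RPE, with an interaction of 1.57 (SE 0.19). In sclera with choroid gfra1a was at 3.27 to 6.53 CPM in wild type and 7.20 to 8.92 CPM in mutants. KLHL25 was there at 10.6 to 13.6 CPM in wild type and 16.1 to 18.9 CPM in mutants. The interactions of the remaining 5 genes were 2.31 for ENSDARG00000039936, 1.52 for GDPD1, a phospholipid-cleaving enzyme, 1.18 for the ENSDARG00000098201 copy of mtmr3, a phosphoinositide phosphatase, 0.95 for scp2a, a sterol carrier protein, and 0.70 for rnf11a, a RING finger protein. The other copy of mtmr3, ENSDARG00000093364, did not pass (0.56, SE 0.85, edgeR adjusted p = 0.899).

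**Figure D3:**
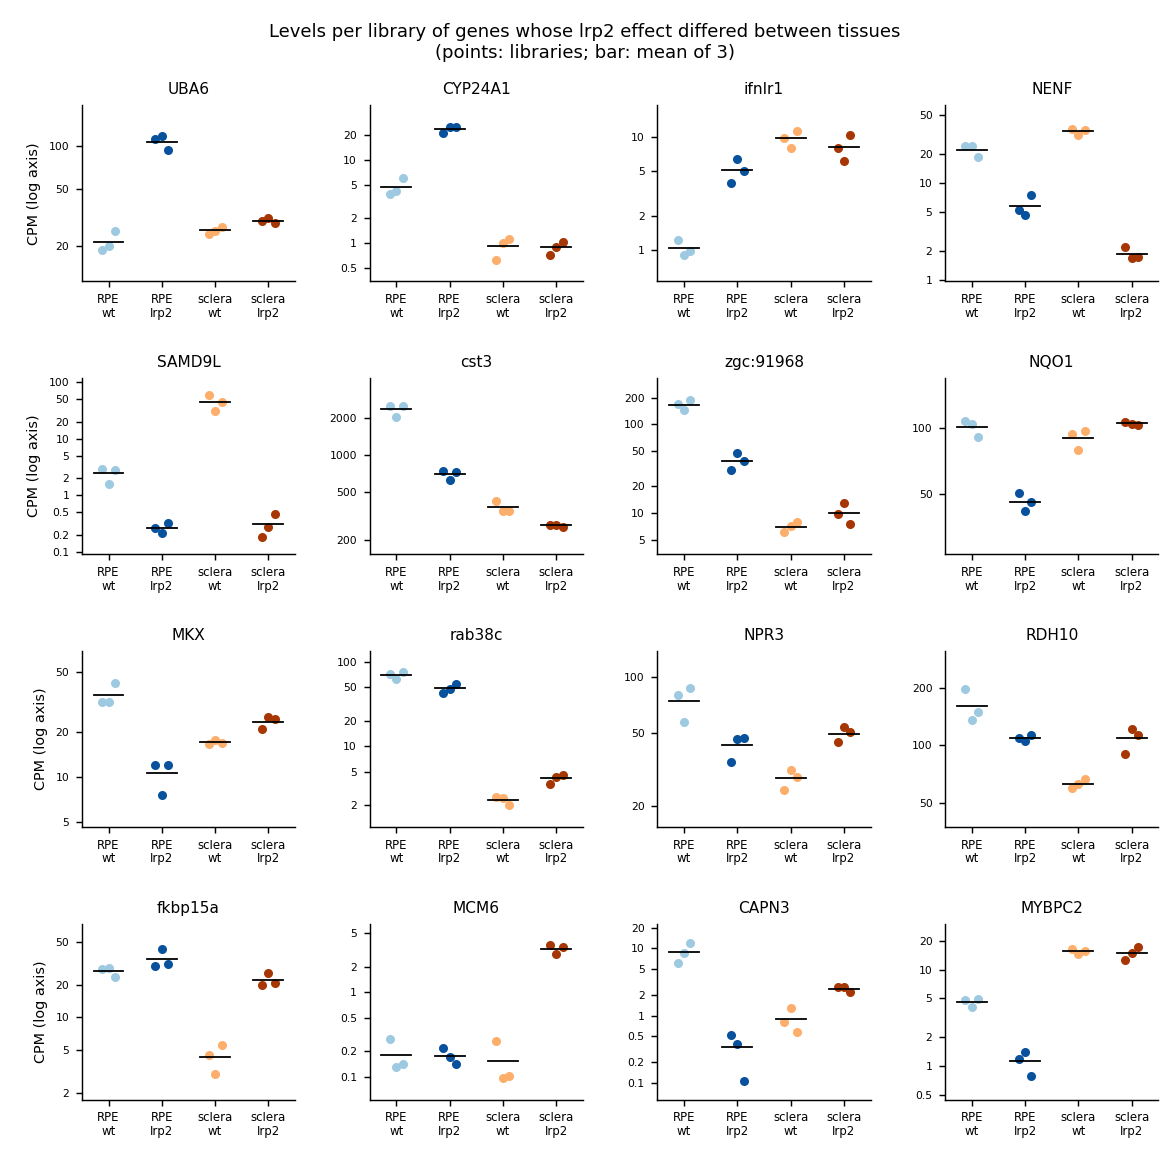
CPM in each of the 12 libraries (points) and group means (bars) for 16 genes that passed the interaction test, on log axes, by tissue and genotype. UBA6, CYP24A1 and ifnlr1 rose in mutant RPE, NENF, SAMD9L and cst3 fell in both tissues by unequal amounts, zgc:91968, NQO1, MKX, CAPN3 and MYBPC2 fell in RPE, and fkbp15a and MCM6 rose in sclera with choroid.

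The mutant effect had the same direction and an unequal size in 3 genes, all lower in mutants. NENF (ENSDARG00000040192) encodes neudesin, a secreted neurotrophic factor. It was at 24.1, 23.9 and 18.7 CPM in wild-type RPE and at 5.28, 4.68 and 7.52 CPM in mutant RPE. Its level in sclera with choroid went from 36.4, 31.4 and 35.5 CPM to 2.17, 1.68 and 1.72 CPM. NENF thus fell by 1.93 on the log2 scale in RPE (SE 0.19, edgeR adjusted p = 0.000768) and by 4.22 in sclera with choroid (SE 0.21, edgeR adjusted p = 1.47e-05), an interaction of -2.29 (SE 0.27, edgeR adjusted p = 0.0171).

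SAMD9L (ENSDARG00000102729), an interferon-induced growth and virus restriction factor in mammals, was at 58.9, 31.1 and 43.8 CPM in wild-type sclera with choroid and at 0.18, 0.27 and 0.46 CPM in mutants. In RPE it was at 2.87, 1.59 and 2.79 CPM in wild type and 0.26, 0.21 and 0.32 CPM in mutants. The mutants of both tissues overlapped at a low level, while the wild-type levels did not overlap, with an interaction of -3.95 (SE 0.58, edgeR adjusted p = 0.0321). In cst3 (ENSDARG00000007795) the RPE changed more. It encodes cystatin C, a secreted inhibitor of cysteine proteases and, in mammalian kidney, a cargo of megalin. It was at 2532, 2065 and 2542 CPM in wild-type RPE and at 740, 625 and 725 CPM in mutant RPE, against 419, 345 and 349 CPM in wild-type and 266, 266 and 257 CPM in mutant sclera with choroid. The interaction of cst3 was 1.28 (SE 0.17, edgeR adjusted p = 0.0275).

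In 5 genes the mutant effect passed in opposite directions, higher in sclera with choroid and lower in RPE. Both crystallins among them, crygm2d5 and crygm2d2, are described with the lens genes. NPR3 (ENSDARG00000035253), the clearance receptor of natriuretic peptides, was at 80.2, 56.9 and 87.2 CPM in wild-type RPE and 34.8, 46.1 and 47.1 CPM in mutant RPE. Its level in sclera with choroid was 24.5, 31.4 and 28.8 CPM in wild type and 44.4, 54.0 and 50.1 CPM in mutants. NPR3 fell by 0.81 on the log2 scale in RPE (SE 0.18, edgeR adjusted p = 0.0285) and rose by 0.81 in sclera with choroid (SE 0.18, edgeR adjusted p = 0.0318). The genotypes were apart in both tissues, and the mutant means of RPE and sclera with choroid were 42.7 ± 6.81 and 49.5 ± 4.85 CPM, beside 74.8 ± 15.8 and 28.3 ± 3.49 CPM in wild type.

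The gene rab38c (ENSDARG00000074719) belongs to the Rab GTPases, of which Rab38 carries melanosome proteins in mammals. It was at 72.3, 63.6 and 75.1 CPM in wild-type RPE and 43.3, 47.2 and 55.3 CPM in mutant RPE, and at 2.53, 2.44 and 1.99 CPM in wild-type and 3.62, 4.37 and 4.57 CPM in mutant sclera with choroid. Its interaction was 1.39 (SE 0.20, edgeR adjusted p = 0.0317). The ENSDARG00000074842 copy of SNX8, a sorting nexin of endosomes, was at 19.1 ± 2.06 CPM and 12.5 ± 0.77 CPM in wild-type and mutant RPE, and at 11.7 ± 0.92 CPM and 16.6 ± 1.92 CPM in wild-type and mutant sclera with choroid. Its interaction of 1.13 (SE 0.18, edgeR adjusted p = 0.0456) passed in 3 of the 22 alternative settings. For the ENSDARG00000078057 copy of SNX8 the interaction was 0.13 (SE 1.24).

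Of the genes that passed in sclera with choroid alone, 8 rose. MCM6 has 2 copies with that name, subunits of the helicase that opens DNA for replication. The ENSDARG00000033231 copy was near the detection limit in wild-type sclera with choroid at 0.26, 0.10 and 0.10 CPM and was at 3.62, 2.82 and 3.44 CPM in mutants. In RPE it lay between 0.13 and 0.28 CPM in both genotypes. Its interaction was 4.46 (SE 0.69, edgeR adjusted p = 0.0390). The more abundant ENSDARG00000057683 copy of MCM6, at 60.9 ± 8.39 CPM in wild-type and 61.3 ± 15.3 CPM in mutant sclera with choroid, had an interaction of -0.33 (SE 0.50).

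The gene fkbp15a (ENSDARG00000095142), related to FK506-binding proteins, was at 4.53, 2.96 and 5.52 CPM in wild-type and at 20, 25.8 and 20.7 CPM in mutant sclera with choroid. RPE held 28.2, 28.7 and 23.7 CPM in wild type and 29.7, 42.9 and 31.1 CPM in mutants, so the mutant sclera with choroid approached the RPE level. Its interaction was 1.99 (SE 0.31, edgeR adjusted p = 0.0418). The rise of fkbp15a was not particular to sclera with choroid. Mutants were higher without overlap in retina, 12.93 ± 1.04 against 1.40 ± 0.48 CPM. The same held in whole eyes, 12.45 ± 1.04 against 3.42 ± 0.54 CPM.

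RDH10 is the retinol dehydrogenase of the first step of retinoic acid synthesis. Its ENSDARG00000058730 copy was at 59.4, 62.6 and 66.5 CPM in wild-type and at 90.5, 122 and 113 CPM in mutant sclera with choroid. In RPE it was at 196, 137 and 150 CPM in wild type and 109, 106 and 113 CPM in mutants, apart as well but short of the threshold (log2 -0.56, SE 0.15, edgeR adjusted p = 0.0586). The wild-type difference between the tissues, 161 ± 31.5 CPM against 62.8 ± 3.57 CPM, had no counterpart in the mutants, at 109 ± 3.75 CPM and 109 ± 16.4 CPM (SD, n = 3 each). The interaction of RDH10 was 1.35 (SE 0.21, edgeR adjusted p = 0.0390), and that of its ENSDARG00000012369 copy was -0.01 (SE 0.18). The other risers in sclera with choroid were CYB5A (cytochrome b5, interaction 1.34, SE 0.20), SCN10A (a voltage-gated sodium channel, 2.97, SE 0.48), ENSDARG00000094073 (2.85, SE 0.42) and the crystallins crygm2d11 and crygm2d20.

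The 7 genes that fell in sclera with choroid and did not pass in RPE were 5 crystallins, the lens-abundant zgc:153846 and ENSDARG00000101941. The last was at 64.2, 36.3 and 21.4 CPM in wild-type and at 0.36, 0.41 and 0.80 CPM in mutant sclera with choroid. RPE held 0.34 to 2.05 CPM of ENSDARG00000101941 in wild type and 0.91 to 1.39 CPM in mutants, and the genotypes overlapped there. Its interaction was -6.24 (SE 0.86, edgeR adjusted p = 0.0285).

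Crystallins, the structural proteins of lens fibres, made up 9 of the 43 genes, 4 with a higher and 5 with a lower mutant effect in sclera with choroid. All of them were scarce in both tissues. CRYBB2, a beta crystallin, was at 6.26, 8.84 and 5.73 CPM in wild-type sclera with choroid, and over the 3 mutant libraries 1 count was found against 416 in wild type, a ratio of 437 (95% interval 77.9 to 17290, for counting error only). In RPE it was at 6.19, 5.19 and 9.45 CPM in wild type and 5.54, 5.40 and 1.58 CPM in mutants, which overlapped and did not pass. The crygm1 gene likewise had 1 count in mutant sclera with choroid against 433 in wild type, a ratio of 455 (81.2 to 17990).

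No count of crygm2a, crygm3 or crygs3 was found in mutant sclera with choroid. Against a floor of 3 counts over the 3 libraries, crygm2a was at least 127-fold lower there (364 counts in wild type), crygm3 at least 131-fold lower (374 counts) and crygs3 at least 19.6-fold lower (56 counts). Mutant RPE kept 1.16 to 4.34 CPM of crygm2a and 1.44 to 4.46 CPM of crygm3, and neither passed in RPE.

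The crygm2d genes did the opposite. The level of crygm2d2 was 1.37, 1.82 and 1.28 CPM in wild-type sclera with choroid and 7.77, 7.78 and 7.50 CPM in mutants, and in RPE it went from 1.64, 1.07 and 2.19 CPM to 0.65, 0.67 and 0.21 CPM. For crygm2d5, sclera with choroid went from 0.11, 0.24 and 0.10 CPM to 6.81, 8.05 and 4.98 CPM, and in RPE 18 wild-type counts faced none in mutants, at least 6.46-fold lower against the same floor. The level of crygm2d11 rose from 0.47, 0.43 and 0.51 CPM to 4.34, 4.37 and 4.15 CPM in sclera with choroid, and that of crygm2d20 from 0.26, 0.38 and 0.26 CPM to 6.21, 6.28 and 5.49 CPM. All 3 mutant libraries of sclera with choroid shared these levels, but most interaction calls depended on single libraries. Of the 12 settings with 1 library left out, crygm2d11 passed in 11, crygm2d20 in 5, crygm2d5 in 4 and crygm2d2 in 2. Among the crystallins that fell, CRYBB2 passed in 4, crygm1 in 2, crygm2a and crygm3 in 1 each and crygs3 in 0. Some members of the crygm family may be alike enough to share reads, and their sequences were not compared. How reads were divided among them is not given, so values of single members are uncertain.

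Set against whole eyes of the same genotype, which contain the lens, lens genes in both wild-type tissues and in mutant RPE mostly stood at a small share within a narrow interquartile range. Over 46 lens genes with at least 100 TPM in wild-type whole eyes, the median share of the whole-eye level was 0.143% in wild-type RPE (quartiles 0.129% and 0.171%), 0.0949% in mutant RPE (0.0827% and 0.114%) and 0.108% in wild-type sclera with choroid (0.101% and 0.129%). The whole ranges were 0.079% to 5.15% in wild-type RPE, 0.0425% to 5.8% in wild-type sclera with choroid and 0% to 1.7% in mutant RPE, where 1 of the 46 genes, crygm2d5, was listed at 0. In mutant sclera with choroid the median was similar, 0.157%, but the quartiles were 0.0318% and 0.265%, the range was 0% to 38.5%, and 4 of the 46 genes were listed at 0. The log2 levels of the 46 genes followed those of whole eyes with a Pearson correlation of 0.909 in wild-type RPE, 0.886 in wild-type sclera with choroid and 0.924 in mutant RPE. The same correlation was 0.0913 in mutant sclera with choroid and 0.113 in mutant retina, and these last 2 groups correlated at 0.956 with each other. In wild-type retina it was 0.931, but that mean rests mainly on 1 library. The lens sums of wild-type retina 11, 12 and 13 were 352, 56049 and 415 TPM. These are descriptions across genes that share libraries and depth, and genes are not replicates.

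Single genes show the same split. In mutant whole eyes crygm3 was at 15060 TPM and crygm2d5 at 39.8 TPM. Mutant RPE had 12.0 and 0 TPM of them, while mutant sclera with choroid had 0 TPM of crygm3 and 15.3 TPM of crygm2d5. The mutant retina likewise had 0 TPM of crygm3 and 20.4 TPM of crygm2d5. In wild type, crygm3 exceeded crygm2d5 in whole eyes, retina, RPE and sclera with choroid alike.

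**Figure D4:**
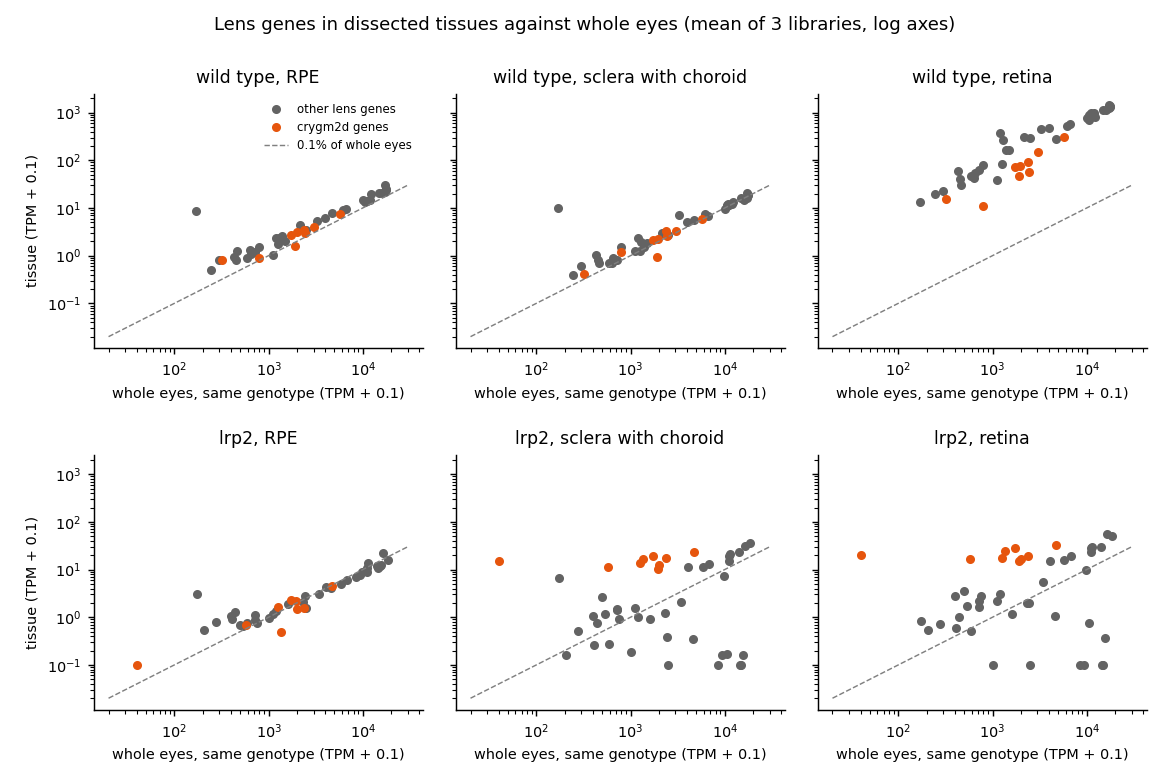
Mean TPM + 0.1 of the 46 lens genes in RPE, sclera with choroid and retina (vertical, log axis) against whole eyes of the same genotype (horizontal, log axis), with crygm2d genes in orange and 0.1% of the whole-eye level as a dashed line. Points follow the line in mutant RPE and in wild-type RPE and sclera with choroid, and scatter with a correlation of 0.0913 in mutant sclera with choroid and 0.113 in mutant retina. The wild-type retina means are set mainly by wild-type retina 12.

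Of the lens list as a whole, 7 of 46 genes tested passed the interaction test, 2 higher and 5 lower, beside 0.19% of all genes tested. Mutant sclera with choroid had 7 risers and 10 that fell, beside 2.26% and 2.7% of all genes tested, and mutant RPE had 3 that fell, beside 3.19%, and no riser. The median interaction of the list was 1.00, beside 0.00 over all genes tested.

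Gene lists of the pigmented and visual tissues mostly had a higher mutant effect in sclera with choroid. Of 44 RPE and visual cycle genes, 30 had a positive interaction, with a median of 0.42, against 50.2% positive over all genes. RDH10 was the 1 member that passed. Of the 44, 4 rose in sclera with choroid (2.26% of all genes tested) and 3 fell in RPE (3.19%), among them RGR, the RPE opsin that isomerizes retinal, at 526 ± 268 CPM in wild-type and 115 ± 61.3 CPM in mutant RPE. The median difference of the list was only -0.16 in RPE and 0.08 in sclera with choroid, so RGR is no typical member. LRAT was higher in mutant RPE, 102.5 ± 11.2 against 73.6 ± 13.1 CPM, and did not pass there (edgeR adjusted p = 0.116). Of 22 melanosome genes 18 were positive (median 0.51), of 27 iridophore genes 25 (median 0.84) and of 30 rod genes 28 (median 1.19). None of these 3 lists had a member that passed the interaction test, beside 0.19% of all genes tested. Without mutant sclera 12 the melanosome median was 0.19 and the iridophore median 0.60. Rod markers came to sums of 2913, 4986 and 17000 TPM in wild-type RPE and 2131, 3001 and 5830 TPM in mutant RPE, so that wild-type RPE 13 alone lay far above the rest. The part of the rod marker level in these results was not tested. List members named here and in the following paragraphs that did not pass the interaction test, other than BMP4, were chosen after their values were seen.

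Part of the muscle and red blood cell genes fell in mutant RPE. Of 67 skeletal muscle genes, 20 fell in RPE and none rose, beside 3.19% and 1.99% of all genes tested. In sclera with choroid 2 fell, near the 2.7% of all genes, and 54 had a positive interaction (median 1.19), of which MYBPC2 passed. Single members fell steeply in RPE, such as the ENSDARG00000009280 copy of SMYD1, a methyltransferase of myosin assembly, from 120 to 16.8 mean CPM with an interaction of 2.41 (SE 0.42, edgeR adjusted p = 0.0655), and atp2a1, the calcium pump of fast fibres, from 80.3 ± 71.7 to 8.63 ± 1.94 CPM with an interaction of 3.06 (SE 0.99, edgeR adjusted p = 0.307). The summed TPM of the list overlapped between genotypes, at 2257 ± 572 in wild-type and 2932 ± 520 in mutant RPE. The median interaction of the list was 0.73 without wild-type RPE 13.

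Of 22 red blood cell genes, 8 fell in RPE (3.19% of all genes tested) and 1 in sclera with choroid (2.7%). Of the 22, 17 had a positive interaction (median 0.81), and none passed the interaction test (0.19% of all genes tested). The alpha globin hbaa1 was at 5914 ± 527 CPM in wild-type RPE and 1104 ± 309 CPM in mutant RPE, and at 192 ± 91.3 and 74.9 ± 11.8 CPM in wild-type and mutant sclera with choroid. Its interaction was 1.06 (SE 0.48, edgeR adjusted p = 0.507). The sums of red blood cell markers were 16870 to 21150 TPM in wild-type RPE and 3280 to 5628 TPM in mutant RPE, without overlap, and to 349.7 to 941.4 TPM and 304.1 to 388.3 TPM in wild-type and mutant sclera with choroid.

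Immune, vessel and epithelial lists leaned the other way. Of 52 genes of inflammation, complement and interferon, 9 rose and none fell in RPE, beside 1.99% and 3.19% of all genes tested. The sclera with choroid had 1 riser and 2 that fell, near the 2.26% and 2.7% of all genes, and 39 had a negative interaction (median -0.71). None passed the interaction test, beside 0.19% of all genes tested. The chemokine ccl19a.1 came closest, at 2.95 ± 0.56 CPM in wild-type and 117 ± 118 CPM in mutant RPE and 8.26 ± 3.1 and 7.12 ± 2.23 CPM in wild-type and mutant sclera with choroid, with an interaction of -5.53 (SE 0.98, edgeR adjusted p = 0.0694). Of 46 macrophage genes 39 were negative (median -0.60), with 3 risers and 1 that fell in RPE and 1 riser and 5 that fell in sclera with choroid, beside the same background shares. The sums of macrophage markers were 1193 to 1497 TPM in wild-type and 1619 to 1784 TPM in mutant RPE, without overlap, and overlapped in sclera with choroid.

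Of 33 endothelial genes 30 were negative (median -0.60), 1 rose and 4 fell in RPE (1.99% and 3.19% of all genes tested), and 6 fell in sclera with choroid (2.7%), among them the vascular growth factor receptor KDR, from 72.1 ± 24.3 to 25.9 ± 1.04 CPM, against 233 ± 89.5 and 185 ± 33.5 CPM in RPE. The interaction of KDR was -1.14 (SE 0.41, edgeR adjusted p = 0.370). Of 54 corneal and surface epithelium genes 49 were negative (median -0.67), yet without mutant RPE 12, the library with 37190 TPM of these markers, the median was 0.66. The median of the fibroblast matrix list likewise went from -0.14 to 0.14 without that library, and that of 29 motile cilia genes from -0.52 to 0.17 without wild-type sclera 12. Of 52 cell division genes 50 were negative, with a small median of -0.25, and the 1 that passed, the scarce MCM6 copy, was positive.

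**Figure D5:**
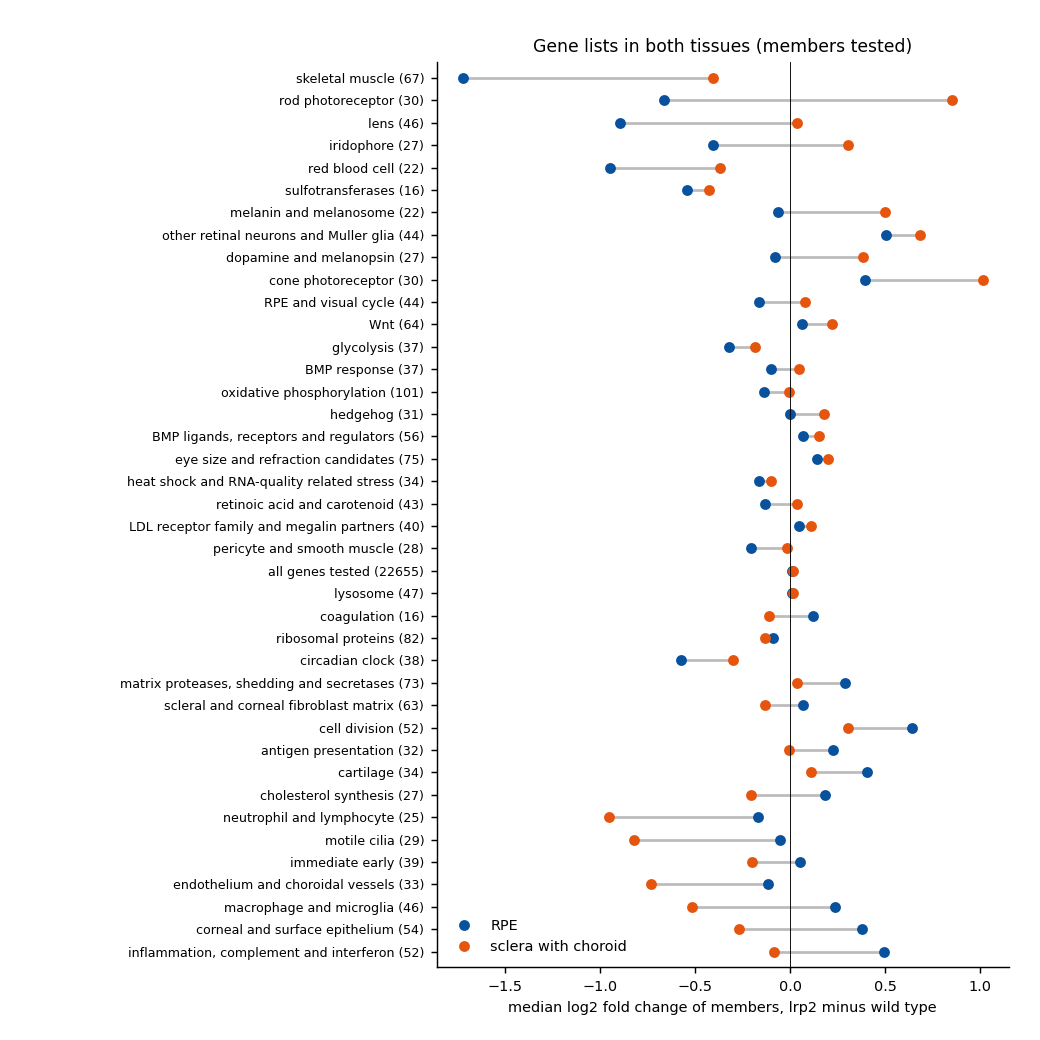
Median log2 fold change of mutants against wild type in RPE (blue) and in sclera with choroid (orange) for each of the 39 gene lists and for all genes tested, ordered by the median interaction, with the number of genes tested in parentheses. Muscle and red blood cell lists lay lowest in RPE, rods went in opposite directions in the tissues, and inflammation, epithelium and macrophage lists were higher in RPE than in sclera with choroid.

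No gene of the BMP, lipoprotein receptor, hedgehog, Wnt or eye size lists passed the interaction test. Only 0.19% of all genes tested passed it, so for lists of this size none is close to that share. Of 43 retinoic acid and carotenoid genes, 1 passed, the RDH10 copy described above, and 24 were positive (median 0.06). In RPE 2 members of that list rose and 7 fell, beside 1.99% and 3.19% of all genes tested. In sclera with choroid 3 rose and 4 fell, beside 2.26% and 2.7%. BMP4, a growth factor made by the RPE in birds during eye growth, was at 17.7 ± 2.17 CPM in wild-type and 19.1 ± 4.56 CPM in mutant RPE, and at 28.1 ± 1.60 CPM and 30.5 ± 1.36 CPM in wild-type and mutant sclera with choroid. Its interaction was 0.01 (SE 0.23, 95% interval -0.50 to 0.51, edgeR adjusted p = 0.999). Of 56 BMP ligands, receptors and regulators 33 were positive (median 0.10) and none passed the interaction test. In RPE 3 rose and 3 fell, beside 1.99% and 3.19% of all genes tested. In sclera with choroid 1 rose and none fell, beside 2.26% and 2.7% of all genes tested. The type I receptor bmpr1ba came closest, with an interaction of 1.90 (SE 0.34, edgeR adjusted p = 0.0698), after a drop from 16.3 ± 1.96 to 6.69 ± 2.04 CPM in RPE and 7.20 ± 1.26 against 11.0 ± 2.47 CPM in sclera with choroid. BMP8A followed, with an interaction of 1.97 (SE 0.39, edgeR adjusted p = 0.0875). None of 40 genes of the low-density lipoprotein receptor family and megalin partners passed the interaction test (median 0.06), nor did any of 31 hedgehog genes (median 0.11, and -0.02 without wild-type sclera 11), 64 Wnt genes (median 0.24) or 75 candidates for eye size and refraction (median 0.09).

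The difference between the tissues was narrower in mutants than in wild type for 21 of the 43 genes (48.8%), beside 58.1% of all genes tested, taking group means of CPM + 0.5. In whole eyes, mutant libraries lay above all wild-type libraries for 8 of the 43 genes, below them for 5, and overlapped for 30, while 19.7% of all genes tested did not overlap, 9.7% above and 10% below. In retina they lay above for 11, below for 9, and overlapped for 23, while 36.1% of all genes tested did not overlap, 17.4% above and 18.7% below. Of those above in mutant retina, NENF, FBXO32, rab38c, scp2a, GDPD1, MYBPC2 and NPR3 had passed as lower in mutant RPE. UBA6 and CYP24A1 had passed as higher there. NENF, lower in mutant RPE and mutant sclera with choroid, was at 3.27 ± 0.45 CPM in mutant and 1.23 ± 0.42 CPM in wild-type retina.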

How the data were processed

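Gene-level tables of the 1-month libraries were used. The authors deposited expected counts per gene and, separately, TPM, scaled to a common total per library. Tools named, per the submitters' processing notes, include HISAT and Bowtie2, with GRCz10 as the build. How reads were counted, with which annotation and strand setting, is not given in the sources used here, so reads of near-identical, overlapping or antisense genes may have been divided in ways the counts do not show.

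Expected counts of the 12 libraries were rounded for edgeR 4.0.16 (R 4.3.3), using filterByExpr, TMM scaling, 1 mean per group and a robust quasi-likelihood F test, two-sided, with Benjamini-Hochberg adjustment over all genes tested and a threshold of 0.05. SE were taken from the F statistic, and intervals are at 95%. CPM use TMM-scaled library sizes, and means are ± SD over n = 3. TPM served for marker sums and lens levels. Fold bounds used a floor of 3 counts per group. The script was tested on simulated counts. Libraries of a group differed beyond counting noise (chi-square per degree of freedom 26.0 to 109.5), so none was merged.

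Named genes were up to 12 with the most positive and 12 with the most negative interaction among genes that passed, with a symbol and a mean of at least 1 CPM in each tissue, those called in opposite directions or in both tissues, up to 4 per list, and LRP2, lrp2b and BMP4. The genes, lists and rule were chosen with earlier results of these data known. Lists were not tested. Symbols were found for 26108 of 31916 identifiers, and capitals mark the symbol of a human orthologue.

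Alternatives were all 24 libraries of 1 month in the fit, RLE scaling, no filter, DESeq2 1.42.0, limma 3.58.1 with voom weights or on log2(TPM + 1) and log2(TPM + 0.1), replicate blocks, each library left out, and, chosen after seeing the data, mutant RPE 21 and mutant sclera 11 both left out.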

Additional observations from a re-analysis of the deposited data

Results flagged for a closer look

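For 43 genes the test of the interaction itself passed, that is, the mutant effect in sclera with choroid differed from that in RPE. The log2 interactions of genes that rose in mutant RPE were -2.11 for UBA6, -2.77 for ENSDARG00000100904, -2.54 for ifnlr1 and -2.36 for CYP24A1. Those of genes that fell in mutant RPE were 6.25 for CAPN3, 4.43 for phka1b, 3.63 for cav4a, 2.63 for zgc:91968, 2.61 for gfra1a, 2.5 for CD36, 2.31 for ENSDARG00000039936, 2.2 for MKX, 2.00 for MYBPC2, 1.57 for KLHL25, 1.57 for FBXO32, 1.52 for GDPD1, 1.35 for NQO1, 1.18 for mtmr3, 0.95 for scp2a and 0.70 for rnf11a. Genes lower in both tissues were at -2.29 for NENF, -3.95 for SAMD9L and 1.28 for cst3. Genes called in opposite directions were at 10.99 for crygm2d5, 4.04 for crygm2d2, 1.62 for NPR3, 1.39 for rab38c and 1.13 for SNX8. Genes that rose in mutant sclera with choroid were at 5.87 for crygm2d20, 4.46 for MCM6, 4.34 for crygm2d11, 2.97 for SCN10A, 2.85 for ENSDARG00000094073, 1.99 for fkbp15a, 1.35 for RDH10 and 1.34 for CYB5A. Genes that fell there were at -9.04 for crygm3, -8.97 for crygm2a, -7.59 for CRYBB2, -7.21 for crygm1, -6.54 for crygs3, -6.24 for ENSDARG00000101941 and -4.30 for zgc:153846. Fitted values of genes with 0 counts in a group depend on the prior count and are no bound.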

How the results depend on the processing

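The interaction passed for 43 genes (30 higher, 13 lower), for 163 (84 and 79) with all 24 libraries, 476 (262 and 214) with DESeq2, which kept all 43, 70 (49 and 21) with voom weights and 76 (48 and 28) on log2(TPM + 1). The larger lists did not always hold the 43. Of these, 28 were kept with all 24 libraries, 36 with voom weights and 28 on log2(TPM + 1). Leaving out single libraries gave 1 to 109 genes, 0 to 56 higher and 1 to 53 lower. Without mutant RPE 21 and mutant sclera 11 the split was 16 higher and 26 lower, and 20 of the 43 were kept. Whether replicate numbers mark shared fish is not stated. Same-numbered RPE and sclera libraries correlated at 0.0458 to 0.336, all positive and best with their own number in 4 of 5 pairs, a hint of pairing, but not every pair exceeded 0.1, so they were not treated as paired. With a replicate block within genotype 2 genes passed (1 and 1), with 1 of the 43 kept, and with a block over both genotypes 24 (6 and 18). The latter block kept 13 of the 43. RLE scaling, no filter and log2(TPM + 0.1) gave 37, 38 and 36 genes, with 36, 38 and 27 of the 43 kept. No direction of the 43 turned where computed, and UBA6 and ENSDARG00000100904 passed in 21 of 22 settings. The setting in which UBA6 did not pass was the replicate block within genotype, where ENSDARG00000100904 was the 1 gene kept. The causes were not tested.

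In sclera with choroid, 2250, 2432 and 2077 genes passed with 24 libraries, DESeq2 and voom weights, and 435 to 1488 with 1 library left out. In RPE, 1994 and 2450 passed with 24 libraries and DESeq2, and 559 to 1728 with 1 left out. The interaction of BMP4, which did not pass, was -0.0462 with 24 libraries, -0.0307 with RLE scaling, -0.0327 with DESeq2, -0.000242 on log2(TPM + 0.1) and -0.154 to 0.19 with 1 library left out. List medians moved by less than 1 SD between replicates in 846 of 858 cases. Where libraries of a group are uneven that SD is wide, so the count is a lenient one. With 3 libraries per group, no interaction under 0.70 in size passed.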
